A study of Mus musculus with 15 samples.

Results

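The genes described here are the nuclear-encoded subunits of the mitochondrial respiratory chain and of ATP synthase, measured as RNA in lymphatic endothelial cells. They were taken by name: protein-coding symbols that begin with Nduf and a letter a, b, c, s or v plus a digit, the 4 Sdh genes, and symbols that begin with Uqcr, with Cox and a digit from 4 to 8, or with Atp5. The rule uses no measured value. The rule found 84 genes among the 21839 of the deposited count table, of which 37 belong by name to complex I, 4 to complex II, 8 to complex III, 18 to complex IV (cytochrome c oxidase) and 17 to complex V (ATP synthase). All mice were of strain C57BL/6, aged 10 weeks, and carried a transplanted melanoma cell line described as lymphangiogenic. No untreated or tumor-free animals were analysed here. Cells were sorted as negative for CD45 and positive for CD31 and gp38 from the tumor (Tumor), from the lymph node that drains it (TdLN) and from a lymph node that does not drain it (NdLN), with 5 libraries in each group. Nothing in the labels says whether the libraries of a group came from separate animals or from pooled animals, so p-values here measure how far these libraries spread.

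Complexes I to IV pass electrons from NADH and succinate to oxygen and, at complexes I, III and IV, pump protons across the inner mitochondrial membrane, and ATP synthase uses the gradient to make ATP. Most subunits are encoded in the nucleus, made in the cytosol and imported, and they assemble with a small set of core subunits that the mitochondrial genome encodes. Endothelial cells are known for relying largely on glycolysis for ATP, while their respiratory chain also serves biosynthesis. The mitochondrially encoded partners were not analysed here.

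Each library held 23830337 to 37437282 counts. Levels are counts per 1e6 (CPM) of the library total scaled by its TMM factor, given as mean ± SD over 5 libraries unless single libraries are listed, which always run from replicate 1 to 5. Log2 fold changes are given ± SE from edgeR's quasi-likelihood fit of all 15 libraries, and a gene was called higher or lower at a Benjamini-Hochberg adjusted p under 0.05 over the 13887 genes tested. The sorted cell type was checked against marker genes. Prox1, the lymphatic lineage factor, stood at 766 ± 52.9 CPM in the non-draining node, 538 ± 74.9 in the draining node and 105 ± 22.7 in Tumor, and Pecam1, which encodes CD31, at 1596 ± 84.6, 1179 ± 87.1 and 276 ± 86.6 CPM. Of the 9 lymphatic endothelial genes listed, Prox1, Pecam1, Mmrn1, Lyve1 and Cdh5 were called lower in Tumor than in TdLN and Ccl21a and Reln higher, with Ccl21a, a chemokine, at 135 ± 71 CPM in TdLN and 1226 ± 367 in Tumor. Flt4 and Pdpn, which encodes the gp38 used in the sort, did not pass, and Pdpn was at 124 ± 20.7, 120.1 ± 15.4 and 116 ± 46.4 CPM in the 3 groups. The 8 pigment cell genes measured of a list of 9 (such as Pmel and Dct) held 0.00169% to 0.00359% of all counts in NdLN, 0.00117% to 0.00325% in TdLN and 2.65% to 4.12% in Tumor, and 8 of 8 were called higher in Tumor than in TdLN. Of these genes, Sox10 was at most 0.128 CPM in NdLN and 0.173 in TdLN, and Mlana at most 1.19 and 0.230. Both passed the filter on low counts only with the help of Tumor libraries, so their calls are not used as support. Pmel alone reached 13087 ± 2473 CPM in Tumor. The Tumor libraries therefore held much RNA of pigment cell genes, and every Tumor value below was measured beside it.

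Of the 84 genes, 81 passed the filter on low counts and were tested, and the other 3 were all minor forms of complex IV subunits. In the node libraries most members were well expressed. In NdLN 51 members had a mean of 100 CPM or more and 12 were under 10 CPM, and in TdLN the numbers were 55 and 12. Per kilobase of merged exon length, the highest member of complex V in NdLN was Atp5b, which encodes the catalytic beta subunit, at 453 CPM per kb. The highest of complex IV in NdLN was Cox6a1 at 636 CPM per kb, of complex I Ndufa1 at 305, of complex III Uqcr10 at 203 and of complex II Sdhd at 169 CPM per kb. In Tumor the same members led 4 of the complexes, with Cox6a1 at 1105, Atp5b at 1090.0, Uqcr10 at 1021 and Sdhd at 526 CPM per kb, and in complex I Ndufb9 led at 789 CPM per kb. These leaders depend on the length used, since merged exons can be much longer than the principal transcript (1381 and 610 bases for Ndufa4). Per kilobase of principal transcript, Ndufa4 stood above Ndufa1 and Sdha above Sdhd in NdLN. In Tumor, Ndufa4 then stood above Ndufb9, Sdhb above Sdhd and Cox4i1 above Cox6a1.

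The members together took 1.31% ± 0.102 (SD, n = 5) of all counts in NdLN, 1.49% ± 0.147 in TdLN and 3.72% ± 0.576 in Tumor. By library the shares were 1.41, 1.19, 1.42, 1.25 and 1.27% in NdLN, 1.59, 1.65, 1.53, 1.33 and 1.34% in TdLN and 4.53, 3.04, 3.32, 3.88 and 3.85% in Tumor. The node groups overlapped, and each Tumor library lay above each node library. By complex, complex V took 0.446% ± 0.0311 in NdLN, 0.498% ± 0.0501 in TdLN and 1.34% ± 0.181 in Tumor, and complex I 0.421% ± 0.039, 0.49% ± 0.0504 and 1.15% ± 0.217. Complex IV took 0.217% ± 0.0209, 0.254% ± 0.0316 and 0.593% ± 0.105, complex III 0.126% ± 0.00872, 0.143% ± 0.0158 and 0.389% ± 0.0606, and complex II 0.0984% ± 0.00456, 0.104% ± 0.00801 and 0.246% ± 0.0211. These sums over members were not tested. Beside the member shares in Tumor 1 to 5, the pigment cell genes held 3.88, 3.25, 2.65, 3.65 and 4.12% and the 8 fibroblast genes 0.129, 0.714, 0.453, 0.284 and 1.05% of counts. The 9 lymphatic endothelial genes held 0.362, 0.479, 0.453, 0.53 and 0.427% in the same libraries, against 0.643% to 0.861% in TdLN. The 10 blood endothelial genes held 0.304% to 0.578% in NdLN, 0.314% to 0.724% in TdLN and 0.0532% to 0.123% in Tumor, with 4 called lower and 1 higher in Tumor than in TdLN, 8 lower and 1 higher in Tumor than in NdLN, and 4 lower in TdLN than in NdLN. Of the fibroblast genes 7 of 8 were called higher and 1 lower, with 0.0114% to 0.0363% of counts in TdLN; all 8 macrophage genes were called higher, at 0.0108% to 0.0244% of counts in Tumor and 0.00124% to 0.00462% in TdLN. Of the macrophage genes, Adgre1 was at most 0.128 CPM in NdLN and 0.115 in TdLN, and Fcgr1 at most 0.260 and 0.432. Both passed the filter on low counts only through Tumor, so their calls are not used as support. The part of these other cell types in the member values was not tested. In sorted bulk samples, a different mix of cells and a different amount of RNA per cell cannot be told apart.

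**Figure D1:**
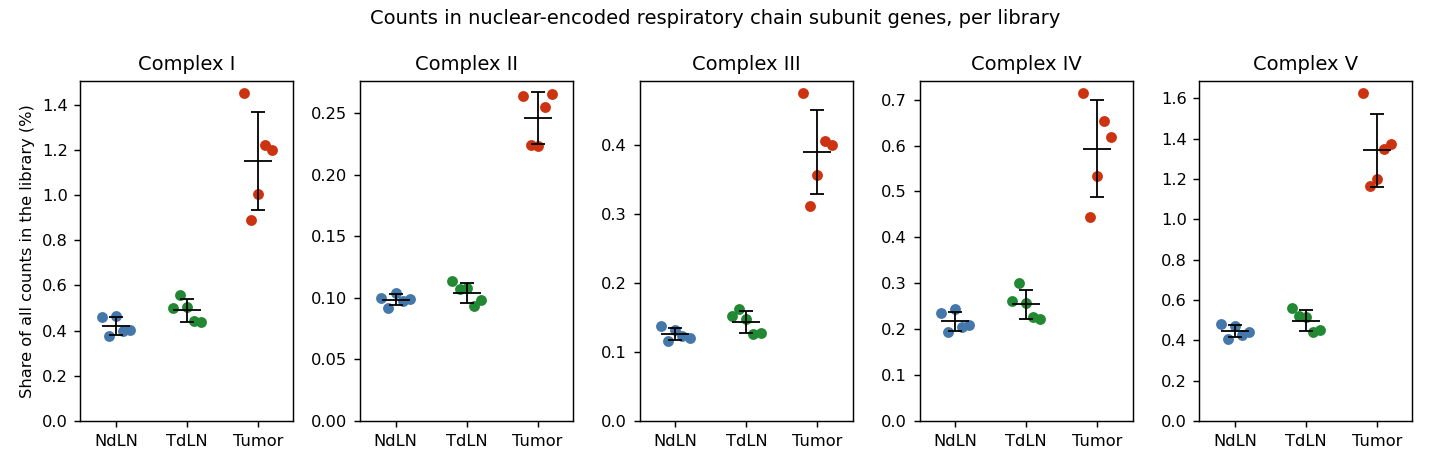
Share of all counts (%, vertical axis from 0) that fell in the nuclear-encoded subunit genes of each complex, in NdLN, TdLN and Tumor; points are libraries and bars are mean ± SD over 5 libraries. In each panel the 5 Tumor points lie above all node points, with complex V at 1.34% ± 0.181 in Tumor and 0.498% ± 0.0501 in TdLN.

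Promoter sequence was examined for motifs of factors known to act on respiratory genes. RefSeq promoter windows (GRCm38.p6, 250 bases before to 50 after a transcript start) were matched by symbol for 68 of the 84 members, in 73 windows, beside 32851 windows of all genes. On both strands, the NRF1 motif stood in 24.7% of member windows and 4.60% of all windows, the YY1 motif AANATGGC in 23.3% and 6.05%, and the ERR motif TCAAGGTCA in 2.74% and 0.423%. The ETS motif CCGGAAGT stood in 6.85% of member windows and 3.89% of all windows, and the hypoxia response core ACGTG in 26.0% and 19.6%. No matches of different motifs overlapped in member windows. The median log2 fold change, Tumor vs TdLN, was 0.94 over the 17 tested members with an NRF1 match and 1.23 over the 50 without. Medians were 1.03 with a YY1 match (17 members) and 1.23 without (50), and 1.26 with an ACGTG match (18 members) and 1.10 without (49). They were 1.22 with an ETS match (5 members) and 1.19 without (62), and 1.65 with an ERR match (2 members) and 1.17 without (65). These medians were not compared by a test. A match is a description of letters in a window and no evidence of binding. Sequences are printed below beside the members whose results they accompany, each as the 100 bases before the start (the RefSeq start or the gene's end in GENCODE M21, whichever lies farther upstream), 5′ to 3′ on the gene's strand.

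The first comparison was of lymphatic cells of the draining node with those of the non-draining node. No member was called in either direction by edgeR, where 3.49% of all genes tested were called (1.84% higher, 1.64% lower). DESeq2 and limma voom also called 0 members, and 7 of the 81 (8.64%) had an unadjusted p under 0.05 in edgeR, against 17.6% of all genes tested. Small differences in 1 direction were common, since 73 of 81 members had a positive log2 fold change, against 49.0% of all genes tested, and the members' median was 0.17, against -0.01 over all genes. The members moved together, so the 73 are not separate agreements. TdLN 2 was the highest TdLN library for 63 of the 81 and TdLN 5 the lowest for 49. NdLN 3 was the highest NdLN library for 43 and NdLN 2 the lowest for 35. With 1 library left out and 82 members fitted, the median was 0.11 (without TdLN 2) to 0.21 (without NdLN 3). The lowest adjusted p was 0.151, for Ndufa9, an accessory subunit of the complex I matrix arm. It was at 187, 159, 206, 164 and 157 CPM in the NdLN libraries and 252, 253, 231, 205 and 194 in the TdLN libraries, with 2 TdLN libraries below the highest of NdLN, and its log2 fold change was 0.38 ± 0.13. The others with an unadjusted p under 0.05 were Ndufc1, Cox5a, Atp5g1, Atp5g3 and Atp5mpl, all higher in the mean of TdLN, and Ndufa4l2, at 0.638, 1.25, 0.792, 1.79 and 1.55 CPM in NdLN and 0.317, 1, 0.374, 0.929 and 0.348 in TdLN (log2 fold change -1.01 ± 0.44, adjusted p = 0.243 by edgeR). Only Ndufc1 and Ndufs4 had all 5 TdLN libraries above all 5 NdLN libraries, 2 of 81 members beside 2.87% of all genes tested. The 77 mitochondrial ribosomal protein genes had a median of 0.20 in this comparison, with 1 called higher. The 82 genes tested with cytoplasmic ribosomal protein names had a median of 0.16, with 0 called by edgeR. No member had all TdLN libraries below all NdLN libraries, where 4.95% of all genes did. With an offset for transcript length the members' median was 0.08.

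The next comparison was of cells sorted from the tumor with those of the draining node. Of the 81 members tested, edgeR called 77 higher and 1 lower in Tumor, and 3 did not pass. The 77 include Cox8b, which passed the filter on low counts only with the help of Tumor libraries. That call is not used as support. Over all genes tested 62% were called, 31.9% higher and 30.1% lower, so the background was wide but split between directions. The members' median log2 fold change was 1.17, a 2.25-fold difference, against 0.04 over all genes. All 5 Tumor libraries lay above all 5 TdLN libraries for 64 members, beside 24.1% of all genes tested, and below them for 1 member, beside 22.5%. The size of the difference varied: among the 77 called higher, 1 was under 0.5 on the log2 scale, 28 lay between 0.5 and 1, 27 between 1 and 1.5, 11 between 1.5 and 2, and 10 at 2 or more. The last 10 include Cox8b. Tested against a log2 fold change of 1, 33 members were called higher and 1 lower, where 12.5% of all genes were called higher. Tumor 1 was the highest Tumor library for 74 of the 81 members and Tumor 2 the lowest for 68, so the spread in Tumor was largely shared between members. Member transcripts were short, with a median merged exon length of 1522.5 bases against 4391 over genes tested. With an offset for each library's trend on transcript length, 71 members were called higher and 2 lower and the median was 0.86, where 31.8% of all genes were called higher.

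**Figure D2:**
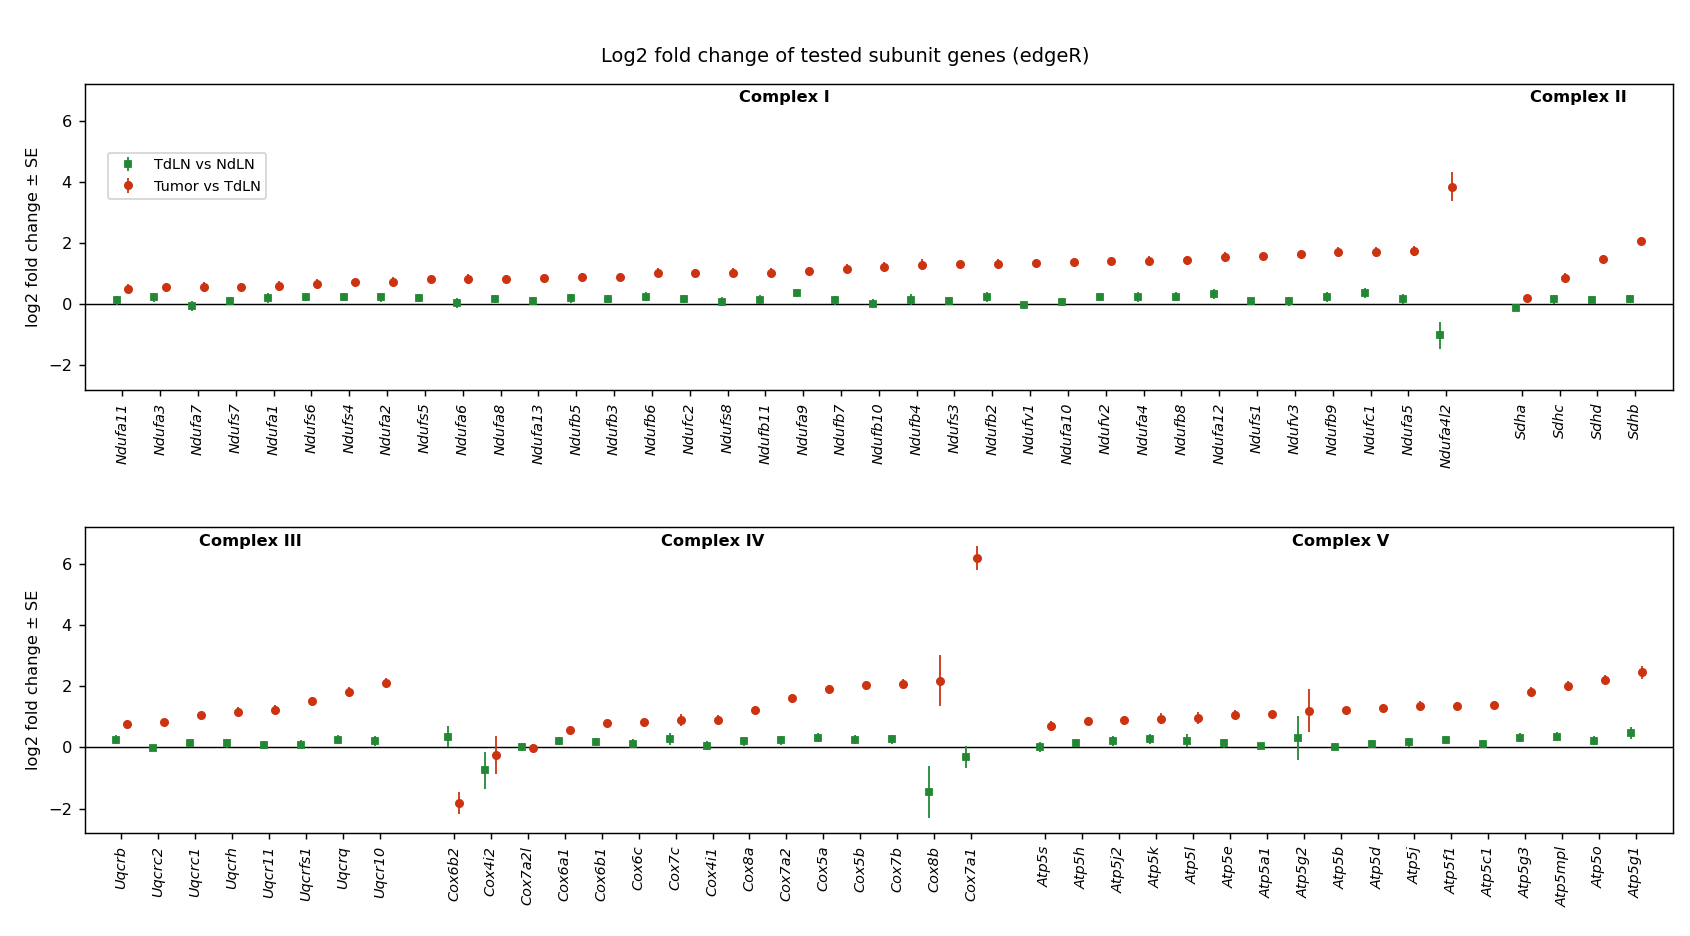
Log2 fold change ± SE of 80 of the 81 tested members, by complex and ordered within it, for TdLN vs NdLN (squares) and Tumor vs TdLN (circles). The TdLN vs NdLN values have a median of 0.17 and run from -1.46 for Cox8b to 0.47 for Atp5g1, and the Tumor vs TdLN values run from -1.81 for Cox6b2 to 6.20 for Cox7a1.

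Complex I takes electrons from NADH. All 37 genes were called higher in Tumor than in TdLN, with a median log2 fold change of 1.03, and 30 of them had groups that did not overlap. The 7 nuclear-encoded genes of the catalytic core had a median of 1.31 and ranged from 0.58 for Ndufs7 to 1.57 for Ndufs1. The other 30, mostly accessory subunits, had a median of 1.03 and ranged from 0.52 for Ndufa11 to 3.85 for Ndufa4l2. Ndufs1, the largest iron-sulfur subunit of the NADH-oxidising arm, was measured at 87.2, 80.5, 93.4, 85.1 and 92 CPM (NdLN), 108, 93.4, 96.6, 84.2 and 91.4 CPM (TdLN) and 313, 278, 220.4, 289 and 310.0 CPM (Tumor). Each Tumor library stood well above all node libraries, and the log2 fold change, Tumor vs TdLN, was 1.57 ± 0.10 (edgeR adjusted p = 5.33e-09). Ndufv1, which carries the flavin and binds NADH, was at 217, 185, 185, 197 and 179 CPM in TdLN and 598, 430.4, 446, 454 and 521 in Tumor. Its groups did not overlap and its log2 fold change was 1.35 ± 0.11 (edgeR adjusted p = 5.45e-08). Ndufv3, a small accessory subunit beside it, was at 84.5, 107, 87.8, 82.6 and 85.1 CPM in TdLN and 366, 204, 238, 301 and 292 in Tumor, a log2 fold change of 1.65 ± 0.14. Its TdLN 2 library stood above the other TdLN libraries, and all Tumor libraries stood higher again.

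Ndufa11, a membrane arm subunit, had the smallest difference in complex I. It was at 208, 150.3, 190.2, 156 and 160.2 CPM in the NdLN libraries, at 189.9, 214, 198, 174 and 169 in those of TdLN and at 373, 190.0, 232, 278 and 278 in those of Tumor. Tumor 2 lay within the TdLN range and the other Tumor libraries above it, and the log2 fold change was 0.52 ± 0.15 (edgeR adjusted p = 0.00869). With the offset for transcript length it was 0.07 and the call was lost, as it also was for Ndufa1, Ndufa3 and Ndufa7. Ndufa4, named for complex I but since placed with complex IV, was at 302 ± 38.5 CPM in TdLN and 814 ± 203 in Tumor (log2 fold change 1.43 ± 0.16). The region before the start of Ndufa11 (chr17:56717662-56717761, plus strand) is shown because it holds an NRF1 match, in capitals, in the member with the lowest fold change of its complex.
Ndufa11: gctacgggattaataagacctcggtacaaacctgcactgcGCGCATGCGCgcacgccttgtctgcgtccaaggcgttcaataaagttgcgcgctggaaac

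Complex II, succinate dehydrogenase, feeds electrons from the citrate cycle into the chain and is the complex with no mitochondrially encoded subunit. Its 4 genes were all called higher in Tumor than in TdLN, with log2 fold changes from 0.21 to 2.07. Sdha, the flavoprotein that oxidises succinate, was measured at 478, 489, 512, 509 and 519 CPM (NdLN), 485, 425, 446, 452 and 472 CPM (TdLN) and 514, 571, 474, 503 and 578 CPM (Tumor). The 3 groups overlapped, and the log2 fold change, Tumor vs TdLN, was 0.21 ± 0.08 (edgeR adjusted p = 0.0247). That call was lost with upper quartile factors, with only the 2 groups fitted, against a log2 fold change of 1, and without TdLN 2, 3, 4 or 5 or Tumor 2, 4 or 5 in turn, with log2 fold changes of 0.15 to 0.21 in those 10 fits. In Tumor vs NdLN it was 0.08 ± 0.08 (edgeR adjusted p = 0.398). Sdhb, the iron-sulfur subunit that takes the electrons from Sdha, was at 189.8, 174, 197, 159 and 165 CPM in the NdLN libraries, at 221, 233, 203, 176 and 166 in those of TdLN and at 1064, 662, 667, 867 and 942 in those of Tumor. The Tumor libraries all stood far above the node libraries, and the log2 fold change was 2.07 ± 0.14 (edgeR adjusted p = 1.06e-08).

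Sdhc and Sdhd encode the membrane anchors that hold the heme and the ubiquinone site. Sdhd was measured at 224, 182, 225, 207 and 202 CPM (NdLN), 258, 246, 242, 206 and 207 CPM (TdLN) and 792, 534, 577, 659 and 677 CPM (Tumor), with no overlap between Tumor and the nodes and a log2 fold change of 1.48 ± 0.11 against TdLN (edgeR adjusted p = 3.12e-08). Sdhc was at 178, 192, 162, 143 and 151 CPM in TdLN and 204, 264, 314, 375 and 355 in Tumor, a log2 fold change of 0.87 ± 0.14. In Sdhc the lowest Tumor library was Tumor 1, which was the highest for most other members. The CPM ratio of Sdhb to Sdha, read only between groups, was 0.397, 0.355, 0.384, 0.313 and 0.318 in NdLN, 0.456, 0.548, 0.455, 0.39 and 0.353 in TdLN and 2.07, 1.16, 1.41, 1.72 and 1.63 in Tumor. It did not overlap between Tumor and the nodes. The ratio of Sdhd to Sdha was 0.415 ± 0.0394, 0.509 ± 0.0599 and 1.23 ± 0.22 in the 3 groups, and of Sdhc to Sdha 0.296 ± 0.0286, 0.364 ± 0.0539 and 0.576 ± 0.144. The sequences before the starts of 3 of the genes are shown to set the member with the smallest difference beside its partners, with NRF1 matches in capitals: Sdha (chr13:74350281-74350380, minus strand), Sdhb (chr4:140961103-140961202, plus strand) and Sdhd (chr9:50603850-50603949, minus strand). The Sdha stretch held 2 matches, that of Sdhd 1 and that of Sdhb 0.
Sdha: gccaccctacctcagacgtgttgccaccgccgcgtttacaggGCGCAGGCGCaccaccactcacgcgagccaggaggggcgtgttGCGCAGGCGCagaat
Sdhb: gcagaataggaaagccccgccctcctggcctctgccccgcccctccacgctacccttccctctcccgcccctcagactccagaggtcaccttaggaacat
Sdhd: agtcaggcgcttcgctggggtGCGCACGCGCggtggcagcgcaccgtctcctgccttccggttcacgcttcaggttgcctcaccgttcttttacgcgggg

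**Figure D3:**
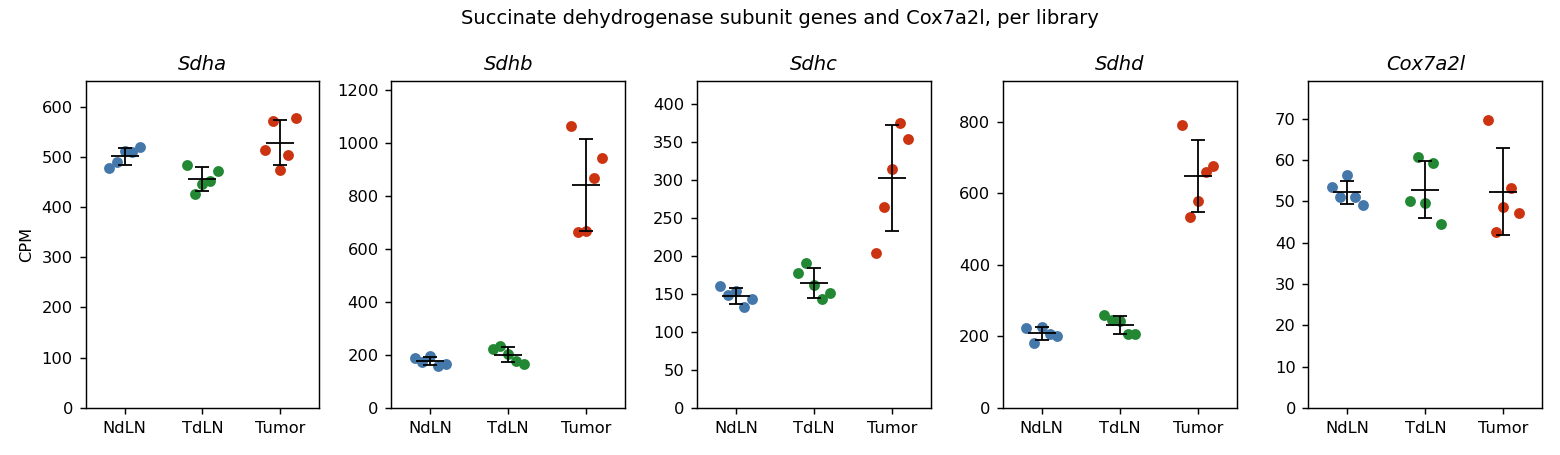
CPM (vertical axis from 0) of the 4 succinate dehydrogenase genes and of Cox7a2l in each library of NdLN, TdLN and Tumor; bars are mean ± SD over 5 libraries. Sdha means lie between 456 and 528 CPM and those of Cox7a2l between 52.2 and 52.9, while Sdhb, Sdhc and Sdhd stand higher in Tumor.

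Complex III passes electrons from ubiquinol to cytochrome c. All 8 genes were called higher in Tumor than in TdLN, with a median of 1.20, and none had overlapping groups. Uqcr10, a small subunit near the iron-sulfur protein, was at 139, 112, 129, 106 and 106 CPM in the NdLN libraries, at 136, 175, 141, 121 and 117 in those of TdLN and at 776, 396, 506, 658 and 645 in those of Tumor. Its lowest Tumor library, Tumor 2, was still above every node library, and the log2 fold change was 2.11 ± 0.17 (edgeR adjusted p = 5.58e-08). Uqcrq, a small subunit that contacts cytochrome b, was at 197 ± 28.6 CPM in TdLN and 691 ± 164 in Tumor, a log2 fold change of 1.81 ± 0.16. Uqcrfs1, the Rieske iron-sulfur protein, was at 122, 142, 87.4, 107 and 97.2 CPM in TdLN and 416, 249, 291, 313 and 313 in Tumor (1.51 ± 0.15). The core protein genes had smaller differences, 1.08 ± 0.10 for Uqcrc1, from 491 ± 56.2 to 1035 ± 107 CPM, and 0.82 ± 0.10 for Uqcrc2. Uqcrb was lowest of the complex at 0.75 ± 0.14.

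Complex IV reduces oxygen. Of its 15 genes tested, 12 were called higher in Tumor than in TdLN, 1 lower and 2 did not pass, and the median was 0.91. The 12 include Cox8b, whose call is not used as support. Cox7b, a small membrane subunit, was at 141, 145, 129, 102 and 109 CPM in TdLN and 659, 366, 454, 597 and 578 in Tumor, with no overlap and a fitted log2 difference of 2.08 ± 0.16 (edgeR, adjusted p = 2.83e-08). Cox5a, on the matrix side, was at 205, 206, 149, 140.4 and 156 CPM in TdLN and 798, 474, 560.2, 672 and 702 in Tumor (1.90 ± 0.15, edgeR adjusted p = 4.03e-08). In both genes every Tumor library stood above the highest TdLN library. Cox4i1, the common form of the subunit at which ATP regulates the enzyme, differed less, at 0.91 ± 0.14, from 571 ± 64.9 to 1075 ± 242 CPM. Cox6a1 had 0.59 ± 0.12, with Tumor 2 inside the TdLN range, and with the offset for transcript length 0.10 and no call.

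Cox7a2l encodes a relative of subunit VIIa that is known to join complexes III and IV in supercomplexes. It was measured at 53.5, 51.1, 56.4, 51 and 49.1 CPM (NdLN), 50.0, 60.7, 49.7, 59.2 and 44.6 CPM (TdLN) and 69.9, 42.6, 48.6, 53.3 and 47.3 CPM (Tumor). The 3 groups overlapped throughout, and the log2 fold change, Tumor vs TdLN, was -0.01 ± 0.13 (edgeR adjusted p = 0.932). With the offset for transcript length it was -0.37 and was called lower (edgeR adjusted p = 0.00138). Cox6b2, a form of the subunit VIb known from testis, was the member called lower. It was at 2.87, 3.53, 2.18, 2.64 and 1.97 CPM in the NdLN libraries, at 3, 5.2, 3.31, 2.62 and 2.78 in those of TdLN and at 0.491, 1.02, 0.562, 1.81 and 0.898 in those of Tumor. All Tumor libraries lay below all node libraries, and the log2 fold change was -1.81 ± 0.37 (edgeR adjusted p = 0.000552). Its common counterpart Cox6b1 was at 368 ± 47 CPM in TdLN and 635 ± 122 in Tumor, a log2 fold change of 0.79 ± 0.13.

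ATP synthase has a catalytic head and stalk, a peripheral stalk and a membrane ring of c subunits that the proton flow turns. Of its 17 genes, 16 were called higher in Tumor than in TdLN and 1 did not pass, with a median of 1.23. The 5 genes of the head and central stalk were close to each other, from 1.07 for Atp5e to 1.40 for Atp5c1. Atp5b, of the catalytic beta subunit, was measured at 2057, 1756, 2021, 1816 and 1951 CPM (NdLN), 2219.9, 1912, 2027, 1811 and 1843 CPM (TdLN) and 5436, 4189, 4025, 4496 and 4945 CPM (Tumor). The groups did not overlap between Tumor and the nodes, and the log2 fold change was 1.23 ± 0.10 (edgeR adjusted p = 6.12e-08). Atp5c1, the rotating gamma subunit, was at 305 ± 24.9 CPM in TdLN and 806 ± 185 in Tumor (1.40 ± 0.13). The 4 genes of the peripheral stalk ranged from 0.86 for Atp5h to 2.21 for Atp5o. Atp5o, which ties that stalk to the head, was at 165, 146, 146, 125 and 128 CPM in TdLN and 896, 503, 555, 663 and 670.1 in Tumor, with no overlap and a fitted log2 difference of 2.21 ± 0.15 (edgeR, adjusted p = 6.18e-09). Of its 50-base words, 50.3% also stand in transcripts of other genes, so its counts are uncertain. Atp5mpl, a small membrane subunit, was at 118, 141, 115, 99.9 and 94.2 CPM in TdLN and 578, 309.6, 390.2, 534 and 486 in Tumor (2.02 ± 0.16).

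The c subunit is encoded by Atp5g1, Atp5g2 and Atp5g3, whose mature proteins are the same and whose import sequences differ. Atp5g3 was at 324, 299.6, 333, 280.4 and 297 CPM in the NdLN libraries, at 451, 438, 362, 341 and 321 in those of TdLN and at 1849, 1029, 1175, 1352 and 1379 in those of Tumor. Tumor did not overlap the nodes, and the log2 fold change against TdLN was 1.83 ± 0.15 (edgeR adjusted p = 5.29e-08). Atp5g1 was measured at 6.66, 4.17, 5.82, 4.62 and 4.68 CPM (NdLN), 10.6, 7.5, 6.73, 4.79 and 6.45 CPM (TdLN) and 50.3, 30.2, 35.3, 41.7 and 41.5 CPM (Tumor), a fitted log2 difference of 2.46 ± 0.22 (edgeR, adjusted p = 1.34e-07). Atp5g2 was under 1 CPM in every library and shares 87.4% of its 50-base words with other transcripts, and its log2 fold change of 1.21 ± 0.70 did not pass (edgeR adjusted p = 0.147). Sequences before the starts of Atp5g3 (chr2:73911327-73911426, minus strand) and Atp5g1 (chr11:96075671-96075770, minus strand) are shown because the genes encode 1 mature protein from different promoters. Capitals mark an ERR match in Atp5g3 and ACGTG matches in Atp5g1, each on either strand. Outside the printed bases, the Atp5g3 window also held ACGTG and NRF1 matches, so ACGTG does not set Atp5g1 apart.
Atp5g3: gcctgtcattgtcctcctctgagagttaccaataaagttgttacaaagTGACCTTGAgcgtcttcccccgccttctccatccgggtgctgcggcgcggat
Atp5g1: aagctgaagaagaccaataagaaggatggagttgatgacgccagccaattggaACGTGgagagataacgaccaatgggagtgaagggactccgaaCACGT

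Several subunits exist as alternative forms from separate genes, and the share of the minor form in the summed CPM per kb of its subunit was compared between groups with exact two-sided permutation tests (5 against 5 libraries, smallest possible p 0.00794, Benjamini-Hochberg over 17 tests). Cox7a1, the heart and muscle form of subunit VIIa, had the highest log2 fold change of all members. It was at 0.0956, 0.492, 0.537, 0.553 and 0.395 CPM in the NdLN libraries, at 0.202, 0.443, 0.316, 0.338 and 0.38 in those of TdLN and at 29.3, 18.1, 17.3, 32.5 and 27.2 in those of Tumor, so that every node library was under 1 CPM and every Tumor library over 17. The log2 fold change, Tumor vs TdLN, was 6.20 ± 0.39 (edgeR adjusted p = 3.46e-09). Its share beside Cox7a2, the common form, was 0.0971, 0.557, 0.518, 0.643 and 0.464% in NdLN, 0.178, 0.335, 0.298, 0.355 and 0.404% in TdLN and 6.64, 7.14, 5.74, 8.03 and 7.25% in Tumor (adjusted p = 0.0225 in both Tumor comparisons, exact permutation test). Cox7a2 thus remained the main form, at 190.4 ± 27.8 CPM in TdLN and 583 ± 124 in Tumor (1.61 ± 0.15). The skeletal muscle markers Acta1, Ckm, Myh4, Tnnt3 and Mylpf together held 0.000469% to 0.000853% of counts in Tumor and 0.000171% to 0.000294% in TdLN. Of the 3 tested, 2 were called higher in Tumor than in TdLN and 0 lower. Ckm, at most 0.0956 CPM in NdLN and 0.0575 in TdLN, passed the filter on low counts only through Tumor. Its result is not used as support. The part of muscle cells in the Cox7a1 difference was not tested.

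Ndufa4l2, a form of Ndufa4 known to be induced in low oxygen, was at 4.3, 7.95, 11.5, 6.29 and 13.2 CPM in Tumor, above every TdLN library (0.317 to 1), with a fitted log2 difference of 3.85 ± 0.47 (edgeR, adjusted p = 4.2e-06). Here Tumor 1 was the lowest Tumor library. Its share beside Ndufa4 was 0.611% ± 0.29 in NdLN, 0.248% ± 0.14 in TdLN and 1.43% ± 0.72 in Tumor (exact permutation test, adjusted p = 0.0225 against TdLN and 0.0981 against NdLN). The share of Atp5g1 among the c subunit genes was 0.742% ± 0.107 in NdLN, 0.821% ± 0.151 in TdLN and 1.29% ± 0.0604 in Tumor (exact permutation test, adjusted p = 0.0225 in both Tumor comparisons), and the lowest Tumor library lay above the highest node library. Cox4i2, the form of subunit IV known from lung and low oxygen, had 93 counts over the NdLN libraries, 57 in TdLN and 50 in Tumor. Its level was 0.462, 0.384, 0.345, 0.197 and 0.285 CPM in TdLN and 0.0409, 0.682, 0.14, 0.373 and 0.145 in Tumor, with a fitted log2 difference of -0.25 ± 0.62 (edgeR, adjusted p = 0.74), and its share did not pass in any comparison. Without Tumor 2, the library with most of its Tumor counts, that share passed in Tumor vs TdLN and Tumor vs NdLN (exact permutation test, adjusted p = 0.0337 in both). Cox8b, the muscle form of subunit VIII, had 42, 15 and 68 counts over NdLN, TdLN and Tumor. It passed the filter on low counts only with the help of Tumor libraries. With only Tumor and TdLN fitted it was not tested, so its call is not used as support. Its log2 fold change, Tumor vs TdLN, was 2.18 ± 0.84 (edgeR adjusted p = 0.0338). The call was lost in 10 alternative fits, with log2 fold changes of 1.72 or more and adjusted p of 0.0503 to 0.139, among them those without TdLN 2, 4 or 5 or Tumor 1, 2 or 4, and its share beside Cox8a passed in no comparison.

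Cox6a2, Cox7b2 and Cox8c had too few counts to be tested in the main fit. DESeq2 and the fit with no filter on low counts called Cox6a2 higher in Tumor than in TdLN. So did the fits without TdLN 1, 2, 3, 4 or 5 or Tumor 3. These calls are not used as support, since Cox6a2 came in through its Tumor counts. Cox6a2, the muscle form of subunit VIa, had 0 counts over the 5 TdLN libraries, 12 over NdLN and 81 over Tumor, where the libraries held 11, 18, 4, 25 and 23. Against the 3 counts that a total of 0 in the TdLN group allows, its pooled Tumor level was 29.7-fold higher. This ratio allows for counting error in TdLN only, and not for error in Tumor or the spread between libraries. The share of Cox6a2 beside Cox6a1 was 0.0642% ± 0.0302 in Tumor. Cox7b2 had 5 counts over NdLN, 10 over TdLN, all in TdLN 5, and 0 over Tumor. Cox8c had 0 counts in every library.

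**Figure D4:**
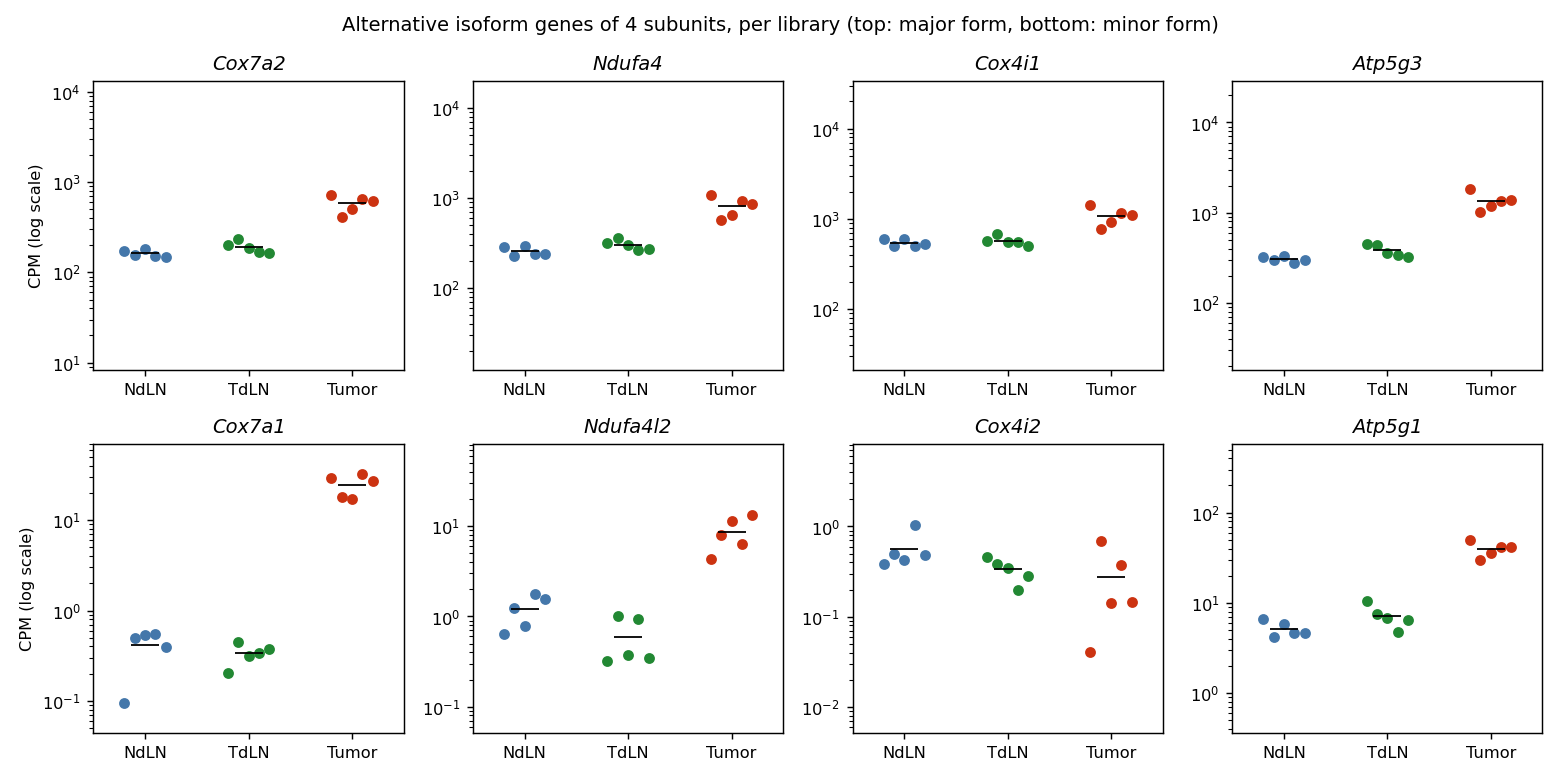
CPM (log axis) of the common form (top row) and an alternative form (bottom row) of 4 subunits in each library, with a bar at the group mean; each panel spans the same ratio from bottom to top. Cox7a1 is under 1 CPM in every node library and 17.3 to 32.5 CPM in Tumor, and Ndufa4l2 and Atp5g1 also stand higher in Tumor, while Cox4i2 overlaps between groups.

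Tumor and NdLN were compared with the same Tumor libraries, so the result is not independent of that against TdLN. edgeR called 75 members higher and 1 lower in Tumor, and 5 did not pass, where 66.5% of all genes were called (34% higher, 32.5% lower). The median log2 fold change was 1.27, against 0.04 over all genes, and 73 members had all Tumor libraries above all NdLN libraries, beside 27.7% of all genes. By complex, 37 of 37 genes of complex I were called higher, 3 of 4 of complex II, 8 of 8 of complex III, 11 of 15 of complex IV and 16 of 17 of complex V. The members that did not pass were Sdha, Cox7a2l (0.00 ± 0.13), Cox4i2 (edgeR adjusted p = 0.163), Cox8b (0.73 ± 0.78) and Atp5g2 (1.52 ± 0.71). Atp5g2 was called higher by DESeq2 (1.53, adjusted p = 0.0409) and limma voom (2.20, adjusted p = 0.0150), and Cox4i2 was called lower without Tumor 2 (-1.68, edgeR adjusted p = 0.0274). Atp5g2 had 26 counts over NdLN, 32 over TdLN and 71 over Tumor. It passed the filter on low counts only through Tumor, so its calls are not used as support. Nor is its place among the 73 members without overlap. Sdhb had a log2 fold change of 2.25 ± 0.15 and Cox7a1 5.89 ± 0.38. Cox6b2 was again lower, at -1.45 ± 0.37 (edgeR adjusted p = 0.00256).

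Copies elsewhere in the genome limit some of the counts. For 38 members no 50-base word of the principal transcript stood in an annotated transcript of another gene. For 4 members over 50% of the words did: Atp5o (50.3%), Cox7c (53.0%), Atp5l (84.8%) and Atp5g2 (87.4%). Cox7c and Atp5l were at 4.54 ± 0.638 and 4.49 ± 0.388 CPM in TdLN and 8.52 ± 1.95 and 8.74 ± 2.07 in Tumor, levels that are uncertain because reads can be lost between copies. Without the 4 members, 74 of 77 were called higher, Cox8b among them, and 1 lower in Tumor vs TdLN.

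Other genes of oxidative metabolism were counted from lists in the same fit, Tumor vs TdLN. The counts stand beside 31.9% of all genes tested called higher and 30.1% called lower. Electron carriers, subunits and associated proteins (Atpif1, Higd1a and Higd2a) that the name rule does not reach were counted first. Of these 7 genes 6 were called higher, with a median of 1.48. Cyc1, the cytochrome of complex III, was at 253, 216, 175, 199.8 and 174 CPM in TdLN and 1093, 748, 734, 865 and 955 in Tumor (2.11 ± 0.14, edgeR adjusted p = 5.42e-09). Cycs, cytochrome c itself, was at 4.87 ± 1.21 and 28.7 ± 7.15 CPM (2.56 ± 0.21), and Higd1a, a small protein of the inner membrane known to be induced in low oxygen, at 16.4 ± 2.03 and 109 ± 13.7 CPM (2.73 ± 0.12). Of the assembly factors, 12 of 15 for complex I were called higher and 1 lower (median 1.05), 5 of 10 for complexes II and III higher and 1 lower (0.76), 15 of 18 for complex IV higher (0.68) and 3 of 3 for ATP synthase higher (0.87). Foxred1, a complex I factor, had 1.33 ± 0.14, while Acad9, another, had -0.26 ± 0.10 and Uqcc3, a complex III factor, -0.61 ± 0.15. Of 13 genes of ubiquinone synthesis, 8 were called higher and 1 lower (median 0.89), among them Coq3 (1.94 ± 0.16) and Coq8a (2.15 ± 0.22), with Coq10b lower (-0.37 ± 0.13). Coq10b was also the gene of that list called lower in TdLN vs NdLN, from 62.4 ± 5.77 to 41.7 ± 3.56 CPM.

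The pyruvate dehydrogenase complex and the citrate cycle supply the NADH and succinate that complexes I and II oxidise. All 18 of these genes were called higher in Tumor than in TdLN, with a median of 1.04. Idh3a, the catalytic subunit of the NAD-linked isocitrate dehydrogenase, was at 132, 101, 99.6, 89.3 and 88 CPM in TdLN and 824, 583, 565, 648 and 729 in Tumor (2.72 ± 0.13, edgeR adjusted p = 1.93e-10), while its partners Idh3b and Idh3g differed by 0.51 ± 0.11 and 0.45 ± 0.12. Mdh2 had 1.69 ± 0.10 and Idh2 1.71 ± 0.11. The kinases that switch pyruvate dehydrogenase off went in both directions: Pdk1 was at 13.5 ± 4.02 CPM in TdLN and 79.5 ± 16.8 in Tumor (2.56 ± 0.22), Pdk3 had 1.35 ± 0.15, and Pdk4 was at 21.4 ± 7.93 and 1.88 ± 1.02 CPM (-3.51 ± 0.48). Slc25a4, a carrier that exchanges ADP for ATP, was at 359 ± 37.5 CPM in TdLN and 1665 ± 273 in Tumor (2.21 ± 0.13), with Slc25a5 at 1.78 ± 0.15 and the phosphate carrier Slc25a3 at 1.45 ± 0.13.

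Of 16 regulators of mitochondrial biogenesis, 6 were called higher and 3 lower, with a median of 0.29. Over all genes tested, 31.9% were called higher and 30.1% lower, so these counts are not read as a trait of the list. Ppargc1a, the coactivator known to drive respiratory gene expression, was measured at 0.893, 0.869, 0.141, 0.911 and 0.875 CPM (NdLN), 0.0866, 0.0295, 0.547, 0.253 and 0.949 CPM (TdLN) and 144, 161, 100.2, 152 and 199.7 CPM (Tumor). It was under 1 CPM in each node library and at least 100 in each Tumor library, a fitted log2 difference of 8.67 ± 0.64 (edgeR, adjusted p = 2.08e-08). The pigment cell genes held 3.88, 3.25, 2.65, 3.65 and 4.12% of counts in the same Tumor libraries. The part of pigment cells in this difference was not tested. Tfb1m, a mitochondrial ribosomal RNA methyltransferase, had 1.41 ± 0.26, while Gabpb1, a subunit of the ETS factor GABP, had -0.80 ± 0.09 and Perm1 -2.15 ± 0.47. Nrf1 itself was at 26.8 ± 3.56 and 33.2 ± 3.1 CPM (0.31 ± 0.12, edgeR adjusted p = 0.0404). Higher levels were not limited to the respiratory chain: 73 of 77 mitochondrial ribosomal protein genes were called higher with a median of 0.84, and 64 of 82 cytoplasmic ribosomal protein genes higher and 1 lower with a median of 0.67. No test set these lists against the members.

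**Figure D5:**
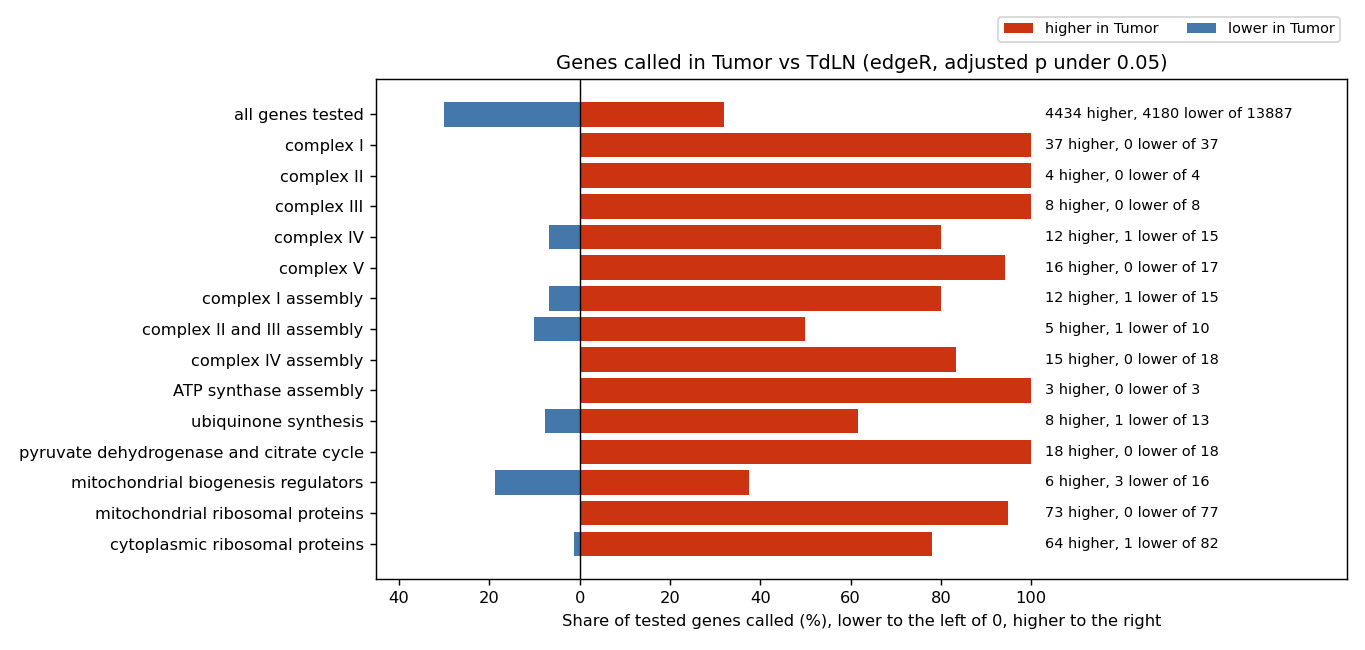
Share (%) of tested genes called lower (left of 0) or higher (right of 0) in Tumor than in TdLN, for all genes tested, each complex and the related lists; the counts stand at the right. Complexes I, II and III and the citrate cycle list reach 100% higher, against 31.9% of all genes tested.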

How the data were processed

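The authors deposited unnormalized gene counts as whole numbers for 15 libraries. The submitters' processing notes name STAR 2.4, featureCounts 1.4.6, CASAVA 1.8.2 and the genome build GRCm38. Which annotation release and which strand option the counting used is not given in the sources used here. Per the labels' protocols, RNA was amplified with a low-input kit and libraries were made with a transposase; such libraries carry no strand, so reads of overlapping or antisense genes cannot be separated. Reads were single, of 50 bases, in pools of 10 libraries; the pool of each library is not recorded in the labels, so its effect was not tested. Since amplified reads carry no molecular identifiers, counting limits cover counting error only. Total counts of 23830337 to 37437282 per library set the precision. No library looked like a duplicate of another in its group (lowest mean chi-square per gene 27.3, far above sampling noise). No column of the table was left unmapped.

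Gene IDs were matched to GENCODE M21, which held 21628 of 21839, and members were taken from its symbols. Group differences come from edgeR 4.0.16 under R 4.3.3 (filterByExpr, TMM, robust glmQLFit, glmQLFTest, 1 fit of 15 libraries), with Benjamini-Hochberg adjustment over 13887 genes; the SE is the log2 fold change over the square root of the F statistic. DESeq2 1.42.0, limma 3.58.1 voom with quality weights, other factors, other filters, a replicate block, a glmTreat threshold at a log2 fold change of 1, an offset for transcript length (lowess, span 0.3) and leaving out each library were alternatives. The scripts were tested on simulated data. Recovery of changed genes is given for TdLN vs NdLN, Tumor vs TdLN and Tumor vs NdLN in turn. It was 4.59%, 3.74% and 5.94% at a log2 fold change of 0.5 and 49.5%, 44.1% and 42.4% at 1. The simulation changed few of its 13887 genes, 107 at 0.5 and 93 at 1 for Tumor vs TdLN. In the data 62% of genes were called in that comparison and 66.5% in Tumor vs NdLN. With few changed genes the adjustment is stricter, so these rates do not measure recovery in the Tumor comparisons. A gene that was not called can still differ. Isoform shares were tested with exact permutation tests (scipy 1.17.1) where the minor form had at least 30 counts. Cox6a2 reached these through Tumor alone, so its test is not used. Cox8b did so in Tumor vs TdLN, so that test is not used as support. The members and lists were chosen with earlier results of these data known, and roles were grouped by textbook knowledge. Genes named were, per complex, the 3 with the lowest adjusted p and the 2 highest in CPM that were not called in Tumor vs TdLN, the 5 highest and 5 lowest fold changes, the isoforms, 10 core subunits, and up to 4 per related list by adjusted p. Beyond that rule, Ndufa1, Ndufa3, Ndufa7, Ndufa9, Ndufb9, Ndufc1, Ndufs4, Ndufs7, Uqcrc2, Uqcrb, Cox6b1, Cox7c, Atp5e, Atp5h, Atp5l, Acad9, Uqcc3, Coq10b, Idh3b, Idh3g and Nrf1 were named after their values were seen. Protein sequences were not used here, and single values of 1 member and of 1 gene of the related lists are not reported here.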

Additional observations from a re-analysis of the deposited data

Results flagged for a closer look

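In groups of 5 libraries, a library was singled out where its gap to the nearest other library, over the range of the group, passed Dixon's 95% critical value of 0.71. Of 120 groups looked at over the named members and shares, 4 did so, and chance alone singles out about 1 in 20. Ndufv3 was at 107 CPM in TdLN 2 and at 82.6 to 87.8 in the other TdLN libraries. Cox4i2 was at 1.04 CPM in NdLN 4 and at 0.383 to 0.492 in the other NdLN libraries, at 32 counts against 12 to 17. Atp5g2 was at 0.778 CPM in Tumor 1 and at 0.315 to 0.431 in the other Tumor libraries, at 19 counts against 12 to 15. Cox6b2 was at 5.20 CPM in TdLN 2 and at 2.62 to 3.31 in the other TdLN libraries. The cause of these single values was not tested.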

How the results depend on the processing

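The count of members called was 0 in TdLN vs NdLN in every alternative run, though small differences can go uncalled. In Tumor vs TdLN it was 73 to 79 and in Tumor vs NdLN 72 to 78, except against a log2 fold change of 1, where it was 34 and 41. Leaving out each library in turn gave 76 to 79 in Tumor vs TdLN and 76 to 77 in Tumor vs NdLN. The counts of 79 include Cox8b and Cox6a2, and the count of 78 includes Cox6a2 and Atp5g2, all rare and highest in Tumor. Of the fold changes of the named members, 1920 of 1962 kept their side of the threshold, 37 lost a call and 4 gained 1. The sign changed in 27, of which 26 were called in neither fit; in the other, Cox7a2l in Tumor vs NdLN was 0.00 and became -0.42 with the offset for transcript length (edgeR adjusted p = 0.000445). The isoform shares kept their calls with lengths left out or taken from the principal transcript. On leaving out single libraries, differences of shares in percentage points that then passed were those of Cox7a1 in TdLN vs NdLN (-0.231 to -0.0949) without NdLN 1, of Cox4i2 in TdLN vs NdLN (-0.113 to -0.0440) without TdLN 1, and of Cox4i2 in Tumor vs TdLN (-0.0835 to -0.0420) and Tumor vs NdLN (-0.177 to -0.0995) without Tumor 2. The complex II share in NdLN was 0.103% after TMM scaling in place of 0.0984%.

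Nothing in the labels says whether same-numbered libraries came from the same animal. Deviations of same-numbered libraries correlated at -0.318 to 0.396 over genes, over 0.1 in 5 of 15 pairs. Such values neither show nor exclude pairing, and the libraries were treated as unpaired. With the replicate number as a block, 77 members were called in Tumor vs TdLN, without Cox8b, 76 in Tumor vs NdLN and 0 in TdLN vs NdLN. Members under 1 CPM rest on few counts.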
